A study of Mus musculus with 6 samples.

Results

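The genes described here are 6 small heat shock proteins, Hspb1, Hspb2, Hspb3, Hspb7, Hspb8 and Cryab, as measured in epididymal white adipose tissue (WAT) of mice after timed sleep restriction (TSR). Their probe sets were all those annotated to exactly 1 of these symbols, which gave 13 probe sets for 6 genes, of 12393 genes with at least 1 such probe set on the array. The set was chosen for the strong difference of Hspb7 and Cryab between the same arrays, so every value of these 6 genes in the comparison of TSR with control is given as a description and carries no test.

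The animals were male C57BL/6 mice, 9 to 11 weeks old by the study's methods, and all tissue was taken at ZT18, where ZT0 is lights on. TSR mice were kept awake by gentle handling for 6 h a day, from ZT0 to ZT6, on 5 consecutive days, and were killed at ZT18 of the last day, while control mice were left undisturbed. RNA of each group was hybridised to 3 Affymetrix mouse arrays, and each array gave 1 MAS5 signal per probe set, a linear intensity in arbitrary units. Whether an array held RNA of 1 mouse or of a pool was not stated in the sources used here, so a p-value covers the spread among these arrays and no more. The median signal of an array lay between 127 and 141 and its 25th percentile between 20.9 and 25.3. A signal below the 25th percentile of its own array was taken as near background.

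Small heat shock proteins share an alpha-crystallin domain, assemble into oligomers and bind unfolding proteins without using ATP, holding them until the HSP70 machinery refolds them or sends them for degradation. Many members are abundant in striated muscle, where they associate with desmin, filamin C, titin and actin filaments, and the heat shock factor HSF1 drives the transcription of several of them under stress. HSPB8 works with the cochaperone BAG3, which links it to HSP70 and to selective autophagy. Hspb2 and Cryab are neighbours: in the RefSeq gene table (GRCm38.p6) the span of Cryab on chromosome 9 overlaps that of Hspb2 and that of 2310030G06Rik. The table places Hspb1 and Hspb8 on chromosome 5, Hspb7 on chromosome 4 and Hspb3 on chromosome 13.

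RefSeq promoter sequences, from 250 bases before to 50 bases after the annotated gene start, were found for 4 of the 6 genes, Hspb1, Hspb3, Hspb7 and Hspb8. They are shown because the genes differed so widely in their response that their upstream sequence is of interest, and they were searched on both strands for the paired heat shock units GAANNTTC and TTCNNGAA, for 3 such units in a row at the same spacing (every match of which holds both paired motifs), for the E-box CACGTG bound by CLOCK and BMAL1, and for the TATA box TATAAA. The capitals mark the matches in each sequence, written from 5′ to 3′ on the strand of the gene. The windows are chr5:135887669-135887968 on the plus strand for Hspb1, chr13:113663627-113663926 on the minus strand for Hspb3, chr4:141420529-141420828 on the plus strand for Hspb7 and chr5:116422815-116423114 on the minus strand for Hspb8.
Hspb7: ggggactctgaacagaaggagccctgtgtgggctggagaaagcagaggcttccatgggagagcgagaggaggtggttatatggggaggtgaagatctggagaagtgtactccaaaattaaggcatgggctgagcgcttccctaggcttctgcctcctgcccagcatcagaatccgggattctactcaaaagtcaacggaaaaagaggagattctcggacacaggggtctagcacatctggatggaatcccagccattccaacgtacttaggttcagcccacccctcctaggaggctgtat
Hspb8: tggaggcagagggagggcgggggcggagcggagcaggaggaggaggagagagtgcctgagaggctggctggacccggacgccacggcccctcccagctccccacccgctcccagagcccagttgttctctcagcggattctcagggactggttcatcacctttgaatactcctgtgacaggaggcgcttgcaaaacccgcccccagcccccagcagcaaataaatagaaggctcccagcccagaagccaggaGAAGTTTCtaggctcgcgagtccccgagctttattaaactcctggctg
Hspb1: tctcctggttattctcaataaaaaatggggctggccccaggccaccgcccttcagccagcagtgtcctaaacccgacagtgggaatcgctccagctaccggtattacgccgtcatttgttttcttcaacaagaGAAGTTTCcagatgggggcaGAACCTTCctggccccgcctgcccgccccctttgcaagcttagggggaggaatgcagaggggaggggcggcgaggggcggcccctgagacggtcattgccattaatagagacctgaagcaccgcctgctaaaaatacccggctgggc
Hspb3: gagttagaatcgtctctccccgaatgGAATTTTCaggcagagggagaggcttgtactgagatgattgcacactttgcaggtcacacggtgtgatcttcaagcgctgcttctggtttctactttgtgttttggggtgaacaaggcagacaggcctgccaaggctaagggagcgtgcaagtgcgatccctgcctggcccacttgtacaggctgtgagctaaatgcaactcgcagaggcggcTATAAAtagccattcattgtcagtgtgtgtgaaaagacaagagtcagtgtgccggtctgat
The Hspb7 window held none of these motifs. The Hspb1 window held GAANNTTC at 117 and at 97 bases before the gene start, as GAAGTTTC and GAACCTTC. The Hspb8 window held GAAGTTTC at position 3 after the start, and the Hspb3 window held GAATTTTC at 224 bases before the start and TATAAA at 11 bases before it. GAANNTTC was thus present in 3 of 4 windows, against 7.86% of all 32851 promoter windows of the same length. The shares over all windows were 8.52% for TTCNNGAA, 0.603% for 3 units in a row, 7.15% for CACGTG and 13.6% for TATAAA. These matches describe the letters in the window and do not show that a factor binds there.

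Hspb7 had the largest difference of the 6 genes. HSPB7 is a chaperone of heart and skeletal muscle that is known for its association with filamin C. The brightest probe set (1434927_at) gave signals of 46.5, 43.9 and 42.3 on the control arrays and of 733, 722 and 757 on the TSR arrays. The control arrays were all just above background and within a few units of each other, and all 3 TSR arrays lay far above them. The means were 44.2 ± 2.11 in control and 737 ± 17.8 in TSR (SD, n = 3 each), a ratio of 16.7-fold and a log2 difference of 4.06. By the ratio of means it was number 18 from the top of the 14707 probe sets that passed the filter on low signals (mean log2 signal of at least 5.45).

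The other Hspb7 probe sets were dimmer and pointed the same way. Probe set 1421290_at gave 21.2, 15.9 and 24.7 in control and 197, 184 and 204 in TSR, a ratio of 9.46-fold and a log2 difference of 3.26. In control, 2 of its 3 arrays were near background and only 1 measured it, and it passed the filter through its TSR arrays, so the size is uncertain. With near-background signals raised to the 25th percentile of their array the log2 difference was 3.07. Probe set 1421289_at gave 1.01, 1.25 and 1.28 in control and 23.0, 34.1 and 32.4 in TSR. All 3 of its control arrays and 1 of its TSR arrays were near background and it did not pass the filter, so its difference is only a bound, at least 1.32-fold higher in TSR. The groups did not overlap in any of the 3 probe sets.

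**Figure D1:**
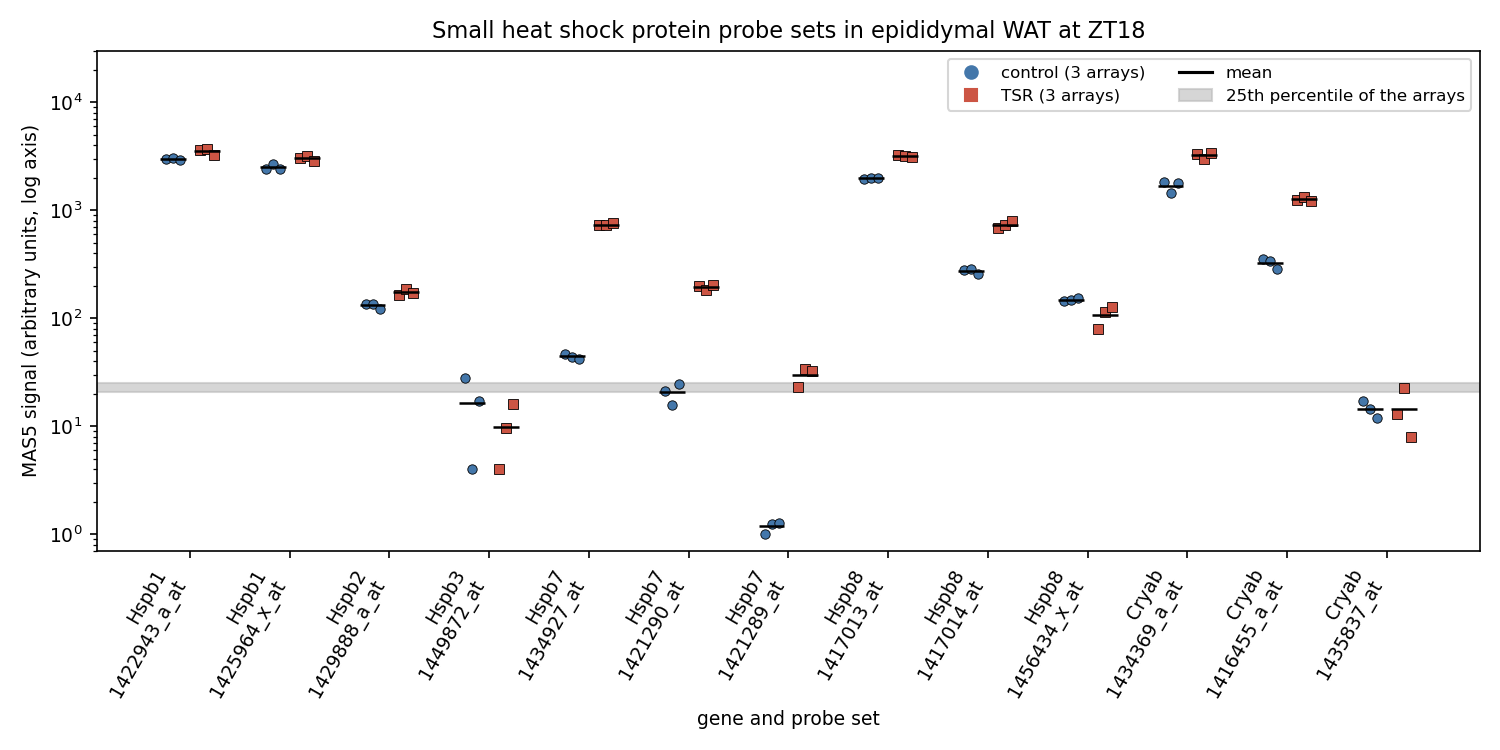
MAS5 signal (arbitrary units, log axis) of the 13 small heat shock protein probe sets, with 1 point for each of the 3 control and 3 TSR arrays. The brightest Hspb7 probe set lies between 42.3 and 46.5 in control and between 722 and 757 in TSR, while the Hspb3 probe set and 1 Cryab probe set overlap between the groups near background.

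Cryab was higher in TSR by both of its bright probe sets. It codes for alpha-B-crystallin, a lens and muscle protein that binds desmin filaments. Probe set 1434369_a_at, the brightest, gave 1813, 1458 and 1775 in control and 3319, 3009 and 3401 in TSR. The lowest TSR array was well above the highest control array, and the means of 1682 ± 195 and 3243 ± 207 (SD, n = 3 each) differed by a ratio of 1.93-fold or 0.95 on the log2 scale. Probe set 1416455_a_at gave 355, 337 and 283 in control and 1243, 1321 and 1219.9 in TSR. The groups were again apart, with means of 325 ± 37.6 and 1261 ± 52.9, a ratio of 3.88-fold and a log2 difference of 1.96, which put it at number 68 by ratio. The remaining probe set, 1435837_at, gave 17.2, 14.3 and 11.8 in control and 12.9, 22.4 and 7.95 in TSR. It overlapped between the groups and was near background on 5 of 6 arrays, all but 1 TSR array.

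Hspb8 was higher in TSR by its 2 brighter probe sets and lower by the dimmest. Probe set 1417013_at gave 1952, 1978 and 1978 in control and 3256, 3204 and 3094 in TSR. The control arrays were nearly level and every TSR array was above them, with means of 1969.5 ± 14.9 and 3184 ± 82.8 (SD, n = 3 each), a ratio of 1.62-fold and a log2 difference of 0.69. Probe set 1417014_at gave 277, 285 and 259 in control and 678, 731 and 787 in TSR, a ratio of 2.67-fold and a log2 difference of 1.42. Probe set 1456434_x_at gave 143, 149 and 154 in control and 80.3, 115 and 128 in TSR. All 3 TSR arrays were below the control arrays there, with a log2 difference of -0.49, so the probe sets of Hspb8 did not share a direction. The suffix _x_at marks a probe set some of whose probes also match other transcripts.

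Hspb2, which forms muscle complexes with HSPB3, was measured by 1 probe set (1429888_a_at). It gave 137, 136 and 122 in control and 164, 185 and 172 in TSR. The groups did not overlap, with means of 132 ± 8.05 and 174 ± 10.6 (SD, n = 3 each), a ratio of 1.32-fold and a log2 difference of 0.40.

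Hspb1, the widely expressed HSP27 that protects actin filaments under stress, had high signals in both groups and a small difference. Probe set 1422943_a_at gave 2986, 3063 and 2921 in control and 3646, 3695 and 3275 in TSR. Probe set 1425964_x_at gave 2423, 2664 and 2409 in control and 3032, 3201 and 2839.6 in TSR. In both, the lowest TSR array lay above the highest control array, with log2 differences of 0.24 and 0.28, ratios of 1.18-fold and 1.21-fold.

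Hspb3, the partner of HSPB2, was measured by 1 probe set (1449872_at) that gave 27.7, 4.03 and 17.2 in control and 3.98, 9.71 and 16.1 in TSR. It overlapped between the groups and was near background on 2 of 3 control arrays and on all 3 TSR arrays. A difference of Hspb3 could not be read at this signal.

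**Figure D2:**
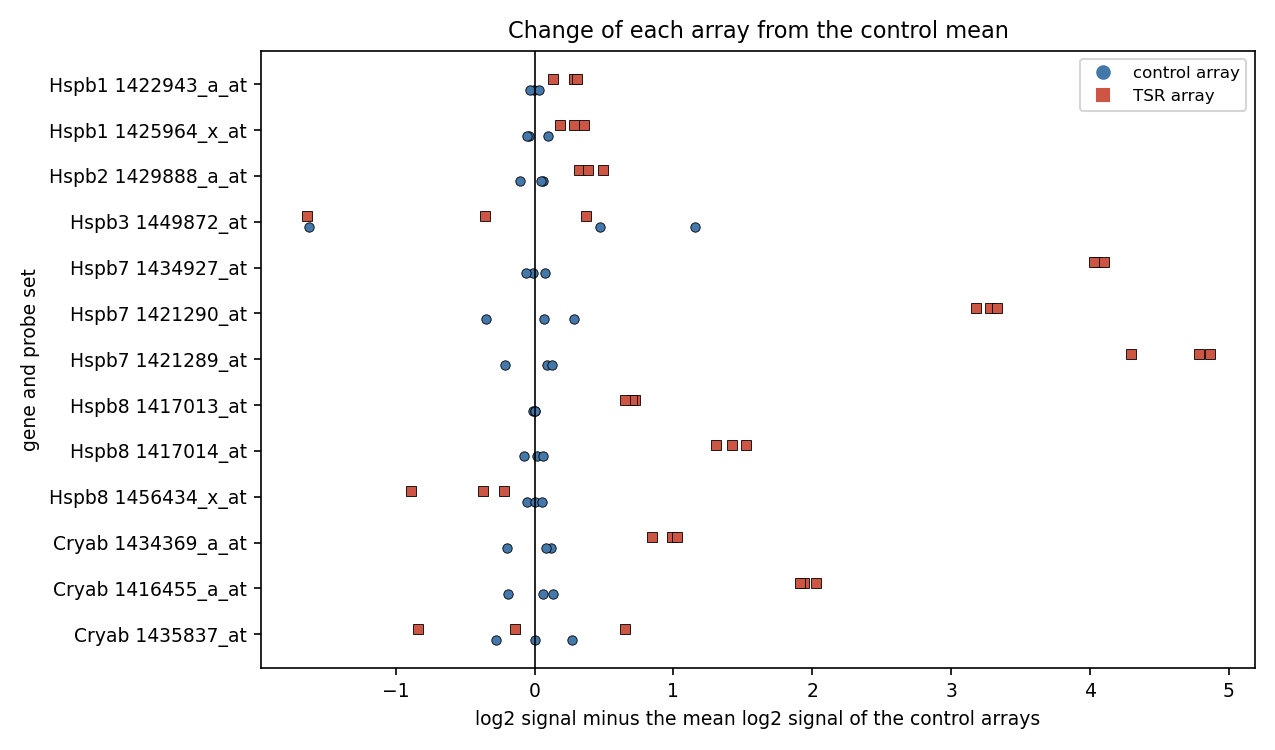
Log2 signal of each array minus the mean log2 signal of the control arrays, for the 13 probe sets, with control and TSR arrays as separate points. In the brightest probe set of each gene the TSR arrays range from 4.03 to 4.10 for Hspb7, 0.85 to 1.02 for Cryab, 0.65 to 0.73 for Hspb8, 0.32 to 0.49 for Hspb2 and 0.13 to 0.31 for Hspb1.

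Taking the brightest probe set of each gene, the order of the log2 differences was Hspb7, Cryab, Hspb8, Hspb2, Hspb1 and, near background, Hspb3. Among the first 5 genes the TSR arrays of neighbours in this order did not overlap in their log2 change from the control mean. That statement leaves out the spread of the control arrays, and the order is a description that depends on the probe set. Hspb8 probe set 1417014_at (1.42) lay above the brightest Cryab probe set (0.95) and below Cryab probe set 1416455_a_at (1.96). Probe sets of a gene could differ in size. Among those that passed the filter, the highest and lowest log2 difference within a gene lay 1.91 apart for Hspb8, 1.01 for Cryab, 0.80 for Hspb7 and 0.03 for Hspb1, while the median SD of log2 signals within a group was 0.10 over the probe sets that passed the filter. Where on the transcript each probe set lies was not determined here.

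Over the 13 probe sets, 10 had all TSR arrays above all control arrays, 1 had them below and 2 overlapped. The share of all 22626 probe sets was 24.0% above and 18.9% below, 42.8% in either direction. The filter was passed by 10 probe sets in 5 genes, and 1 probe set each of Hspb3, Hspb7 and Cryab did not pass. Of those that passed, 4 in 3 genes, Hspb7, Cryab and Hspb8, had a ratio of means of at least 2, against 2.17% of the 14707 probe sets that passed. By the brightest probe set, 5 of 6 genes lay above control without overlap, against 23.4% of 12393 genes, and the median log2 difference of the 6 genes was 0.55, against 0.02 over all genes. That median holds Hspb3, whose difference could not be read, and without it was 0.69. As the genes were chosen from this contrast, nothing is read from these counts.

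**Figure D3:**
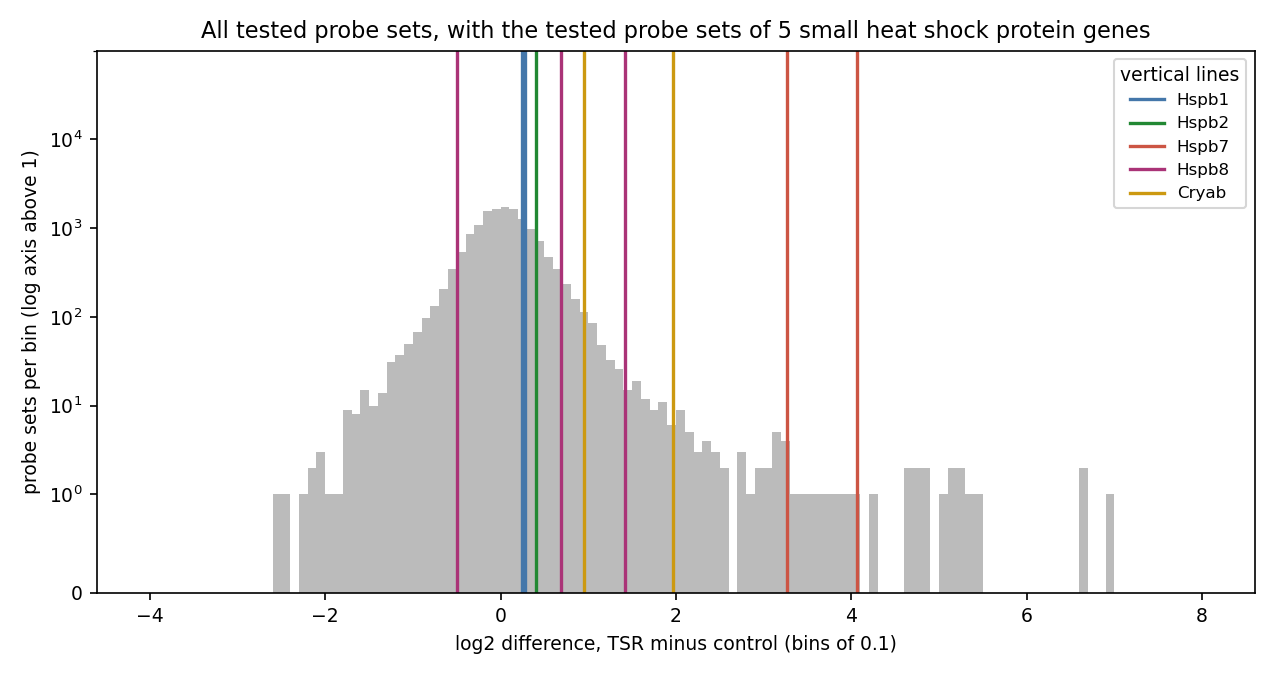
Number of tested probe sets per bin of log2 difference, TSR minus control (log count axis), with vertical lines at the 10 tested probe sets of 5 small heat shock protein genes. The lines run from -0.49 for 1 probe set of Hspb8 to 4.06 for Hspb7, while the median of all tested probe sets is 0.04.

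The probe sets most like the brightest Hspb7 probe set over the 6 arrays, by Pearson's r of their log2 signals, were those of Lpgat1, Apoa1, Acta1, Rab24 and Elovl6. Lpgat1, an acyltransferase, gave 530 ± 7.04 in control and 1088 ± 5.43 in TSR (SD, n = 3 each). Apoa1 gave 7.69 ± 0.356 in control and 754 ± 6.33 in TSR. It was near background in control, so the size of its difference is uncertain. Apoa1 is also among the hepatocyte markers read below, there by another probe set. Acta1, the skeletal muscle actin, gave 399 ± 10.6 and 1871 ± 38.4, and Elovl6, a fatty acid elongase, gave 403 ± 8.70 and 1742 ± 24.1. With 3 arrays on each level, r mainly reflects the step between the groups: 368 of 13530 probe sets, or 2.72%, had r of at least 0.99 with Hspb7. The probe sets most like the brightest Cryab probe set were those of Zfand3, Gpt2, Pdlim7, Tiparp and Bcl2l13. Zfand3 gave 1368 ± 101 and 2025 ± 68.0, Pdlim7, a PDZ and LIM domain protein of the actin cytoskeleton, gave 240 ± 14.8 and 354 ± 10.1, and 72 probe sets (0.532%) reached r of 0.99.

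As several small heat shock proteins are muscle proteins, muscle markers were read on the same arrays. Of 28 skeletal and cardiac muscle markers, 5 had all TSR arrays above control, 4 had them below and 19 overlapped. By the brightest probe set, 23.4% of all 12393 genes lay above control without overlap. Over all 22626 probe sets, 24.0% lay above, 18.9% below. Among the 5 above, Tnnt2 was near background on every array. Among the 4 below, Myh1 and Tnni3 were near background on all 3 TSR arrays. The counts are not read as a shift of muscle. The summed signal of the list was 2369 to 2572 in control and 4343 to 4587 in TSR, and Acta1 and Myl1 made up that difference: without them the other 26 summed to 933 to 1087 and 914 to 986. Acta1 gave 404, 407 and 387 in control and 1827, 1898 and 1887 in TSR, and Myl1, a myosin light chain, rose from 1073 ± 75.0 to 1629 ± 81.3 (log2 difference 0.60, limma adjusted p = 9.0e-05). Most of the defining markers were near background: 20 were near background on at least 1 array, and the myosins Myh2, Myh4 and Myh6, the troponins Tnnt3, Tnnc2 and Tnnt2 and Myot were near background on all 6. Of the 6 that passed the filter, 2 rose, 1 fell and 3 were not called.

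**Figure D4:**
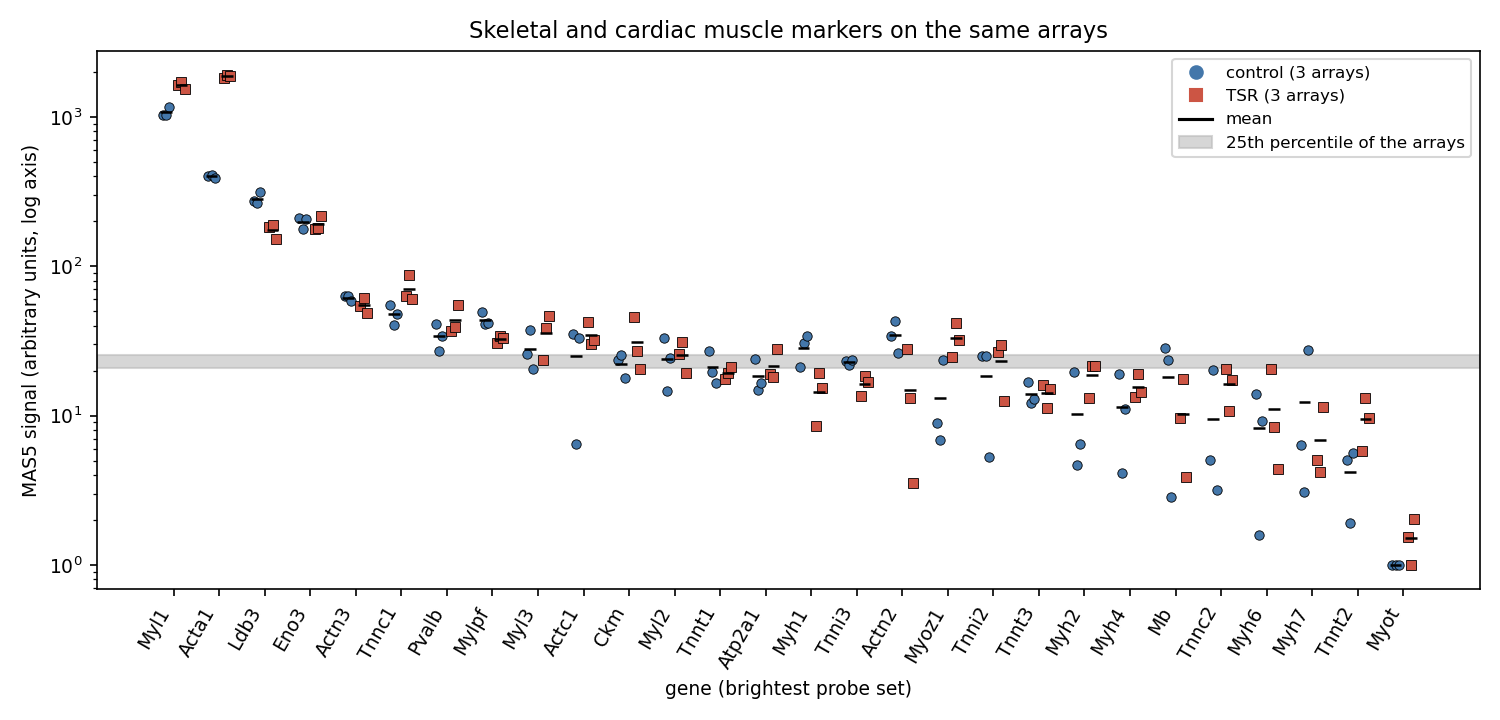
MAS5 signal (arbitrary units, log axis) of 28 skeletal and cardiac muscle markers, by their brightest probe set, on the 3 control and 3 TSR arrays. Acta1 lies near 399 in control and 1871 in TSR, while 19 of the markers overlap between the groups.

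Markers of other cells were read as well, with rises and falls called by limma at an adjusted p under 0.05. Over all 8619 genes tested by their brightest probe set, 24.0% rose and 23.0% fell. Counts near these shares are not read as a shift of that cell type. Among smooth muscle and pericyte markers, cells in which CRYAB and HSPB1 are also found, 1 of 11 tested rose and 4 fell, with summed signals of 19664 to 20828 in control and 17353 to 18324 in TSR, and Cnn1 was near background on every array. All 9 macrophage markers fell, their sum going from 20878 to 21632 in control to 14442 to 14578 in TSR. Of 10 tested hepatocyte markers 9 rose and 1 fell, the latter being Pck1, which adipocytes express too. The sum of all 15 was 4308 to 4996 in control and 14551 to 14782 in TSR. Pck1 alone made up most of the control sum, with 4149 ± 299 in control and 1975 ± 181 in TSR (SD, n = 3 each). The sum therefore understates the rise of the other hepatocyte markers. Alb, coding for albumin, went from 129 ± 31.6 to 3205 ± 143 (SD, n = 3 each). Of 8 adipocyte markers 4 rose and 4 fell (sums 71301 to 85122 and 62671 to 73221), of 10 endothelial markers 3 rose and 5 fell (9212 to 9518 and 8688 to 9029), and of 7 mesothelial markers 1 rose and 3 fell (3528 to 3657 and 3187 to 3351). Epididymis and testis markers were dim, with 0 of 7 passing the filter and sums of 42.2 to 85.6 in control and 67.8 to 116 in TSR. For the control probe sets, which read RNA integrity and labelling, the difference in log2 signal between the 5′ and the 3′ end was -1.22 ± 0.012 in control and -0.67 ± 0.0013 in TSR for beta-actin, and -0.52 ± 0.066 and 0.13 ± 0.054 for Gapdh. In bulk tissue, fewer cells of a type and less RNA per cell cannot be told apart. The part of these marker and RNA quality differences in the values of the small heat shock proteins was not tested.

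In a list of chaperones, heat shock factors and chaperone-assisted autophagy genes, here called partners, more rose than fell. Whether each of them acts with small heat shock proteins was not examined here. The list was chosen with earlier results of these data known, so its counts are given as a description. Of 44 listed genes 38 were measured and 34 passed the filter, of which 18 rose, 3 fell and 13 were not called (limma, adjusted p under 0.05), with a median log2 difference of 0.21. Over all 8619 genes tested by their brightest probe set, 24.0% rose, 23.0% fell and the median was 0.01. With each array centred on its median, which shifts the median of all tested probe sets by -0.11, 12 partners rose and 5 fell, and over all 14707 probe sets the 3768 called higher (25.6%) and 3082 called lower (21.0%) became 2434 and 4420.

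The HSP70 group receives clients from small heat shock proteins. Of its 8 tested members 4 rose and 1 fell. Hsph1, an HSP110 that exchanges the nucleotide of HSP70, rose from 716 ± 20.7 to 1237 ± 44.0 (log2 difference 0.79, SE 0.05, limma adjusted p = 5.2e-06), and its other probe set had a log2 difference of 1.13. Hspa8, the constitutive HSC70 and the brightest, had 12319 ± 805 and 12005 ± 1288 (adjusted p = 0.71), with a log2 difference of -0.04 that turned to 0.29 with quantile normalisation (adjusted p = 0.00055). Of its other probe sets the dimmest fell by 0.71 on the log2 scale and the remaining 2 were not called. The stress-inducible Hspa1b fell from 1563 ± 81.7 to 1239 ± 160 (log2 difference -0.34, adjusted p = 0.012), a call that was lost in the methods' t-test (adjusted p = 0.082 with linear and 0.096 with log2 signals), and its other 2 probe sets were not called. Hspa1a, its near-identical copy, had 287 ± 43.7 and 241 ± 15.4 (adjusted p = 0.12), and as probes may match both, their signals are uncertain as to the gene. Hspa4l rose from 244 ± 16.4 to 304 ± 23.0 (log2 difference 0.31, adjusted p = 0.018), which was lost without control replicate 3 (adjusted p = 0.055) and without TSR replicate 3 (adjusted p = 0.063).

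The J-domain proteins, which hand clients to HSP70, rose in 5 of 8 tested genes and fell in 0. Dnajb1, a stress-inducible member, rose from 881 ± 32.7 to 1196 ± 75.8 (log2 difference 0.44, limma adjusted p = 0.00037), Dnajb2 from 627 ± 28.2 to 764 ± 20.4 and Dnaja1, the brightest, from 4554 ± 144 to 5530 ± 187. Among HSP90 and its cochaperones 4 of 6 tested genes rose and 0 fell. Fkbp4, an immunophilin of steroid receptor complexes, rose from 286, 329.6 and 285 to 428, 447 and 469.6 (log2 difference 0.58), though its dimmer probe set was not called (log2 difference -0.11), and so did Cdc37, which loads kinases, from 767 ± 45.5 to 1057 ± 34.9, and Stip1, which links HSP70 to HSP90, from 370.2 ± 19.4 to 496 ± 32.8. Hsp90aa1 itself had 4338 ± 329 and 4328 ± 179 by its brightest probe set (adjusted p = 0.99), whereas its other 2 probe sets rose, by 0.41 and 0.84 on the log2 scale.

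HSPB8 acts with BAG3 in chaperone-assisted autophagy, and in that group 5 of 8 tested genes rose and 0 fell. Sqstm1, the autophagy receptor p62, rose from 1965 ± 117 to 2696 ± 68.5 (log2 difference 0.46, limma adjusted p = 0.00015), and Bag5 from 373 ± 21.2 to 514 ± 18.5. Bag3 itself rose from 694 ± 42.0 to between 889 and 913 (log2 difference 0.38, adjusted p = 0.00074). It was named after its values were seen, as the partner of HSPB8. Synpo2, which works with BAG3 in muscle, rose from 62.5 ± 12.1 to 93.9 ± 3.77 (log2 difference 0.60, adjusted p = 0.018), a call lost without TSR replicate 2 (adjusted p = 0.055), and Bag1, the brightest, rose from 3010 ± 79.4 to 3380 ± 132 (adjusted p = 0.016), lost without control replicate 3 (adjusted p = 0.054), without TSR replicate 1 (adjusted p = 0.075) and with median centring (adjusted p = 0.43).

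The remaining chaperone groups were small. Of the heat shock factors only Hsf2 passed the filter, with 78.9 ± 7.80 and 90.8 ± 23.8 (limma adjusted p = 0.53). Hsf4 did not pass, and Hsf1 had no probe set of exactly 1 symbol, so it was not read at all. Of the other genes listed by name with the small heat shock proteins, only Hspb11 passed. It fell from 444 ± 36.1 to 354 ± 27.7 (log2 difference -0.33, limma adjusted p = 0.012), lost in the methods' t-test (adjusted p = 0.065 with linear and 0.064 with log2 signals). Whether Hspb11 codes for an alpha-crystallin domain was not examined here, so its fall is not read as one of the family. Hspb6 and Hspb9 had no probe set of exactly 1 symbol and were not read. Cryaa and Odf1 were near background on every array. Of the mitochondrial chaperonin pair, Hspd1 was not called (4556 ± 125 and 4746 ± 299, adjusted p = 0.42), and Hspe1 fell from 2587 ± 129 to 2340.2 ± 92.2 (log2 difference -0.14, adjusted p = 0.046). The Hspe1 call was lost without control replicate 2 (adjusted p = 0.13), control replicate 3 (adjusted p = 0.075), TSR replicate 1 (adjusted p = 0.13) or TSR replicate 3 (adjusted p = 0.13).

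Among filament proteins that small heat shock proteins bind, 1 of 5 tested rose, 3 fell and 1 was not called, with a median log2 difference of -0.17. Over all 8619 genes tested by their brightest probe set, 24.0% rose, 23.0% fell and the median was 0.01. With 5 genes, the counts are not read as a shift of the group. Flna, the broadly expressed filamin, rose from 1171 ± 21.1 to 1332 ± 39.1 (limma adjusted p = 0.0083), lost with median centring (adjusted p = 0.24). Vim, the vimentin of fibroblast and vascular cells, fell from 10635 ± 350 to 9470 ± 456 (adjusted p = 0.028), while its other 2 probe sets were not called (log2 differences 0.03 and -0.03). Actg1 fell from 10277 ± 423 to 8482 ± 382 (adjusted p = 0.0029, lost with quantile normalisation at adjusted p = 0.59). Actb had 12466 ± 1159 and 10355 ± 921 with overlapping arrays (log2 difference -0.27, adjusted p = 0.027), which turned to 0.053 with quantile normalisation and lost its call without control replicate 1 (adjusted p = 0.068), control replicate 2 (0.071), TSR replicate 1 (0.094) or TSR replicate 3 (0.078). The other Actb probe set fell without overlap, from 10228 ± 483 to 6558 ± 1564 (log2 difference -0.67, adjusted p = 0.0068). Des, the muscle desmin that CRYAB binds, passed the filter but was not called (169 ± 45.0 and 150.3 ± 27.6, adjusted p = 0.56). Filamin C, the known partner of HSPB7, gave 72.9, 17.3 and 35.9 in control and 62.7, 11.995 and 51.7 in TSR and did not pass the filter. Its arrays were widely scattered, with 1 of each group near background, so a difference could not be read, and titin was near background on every array.

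**Figure D5:**
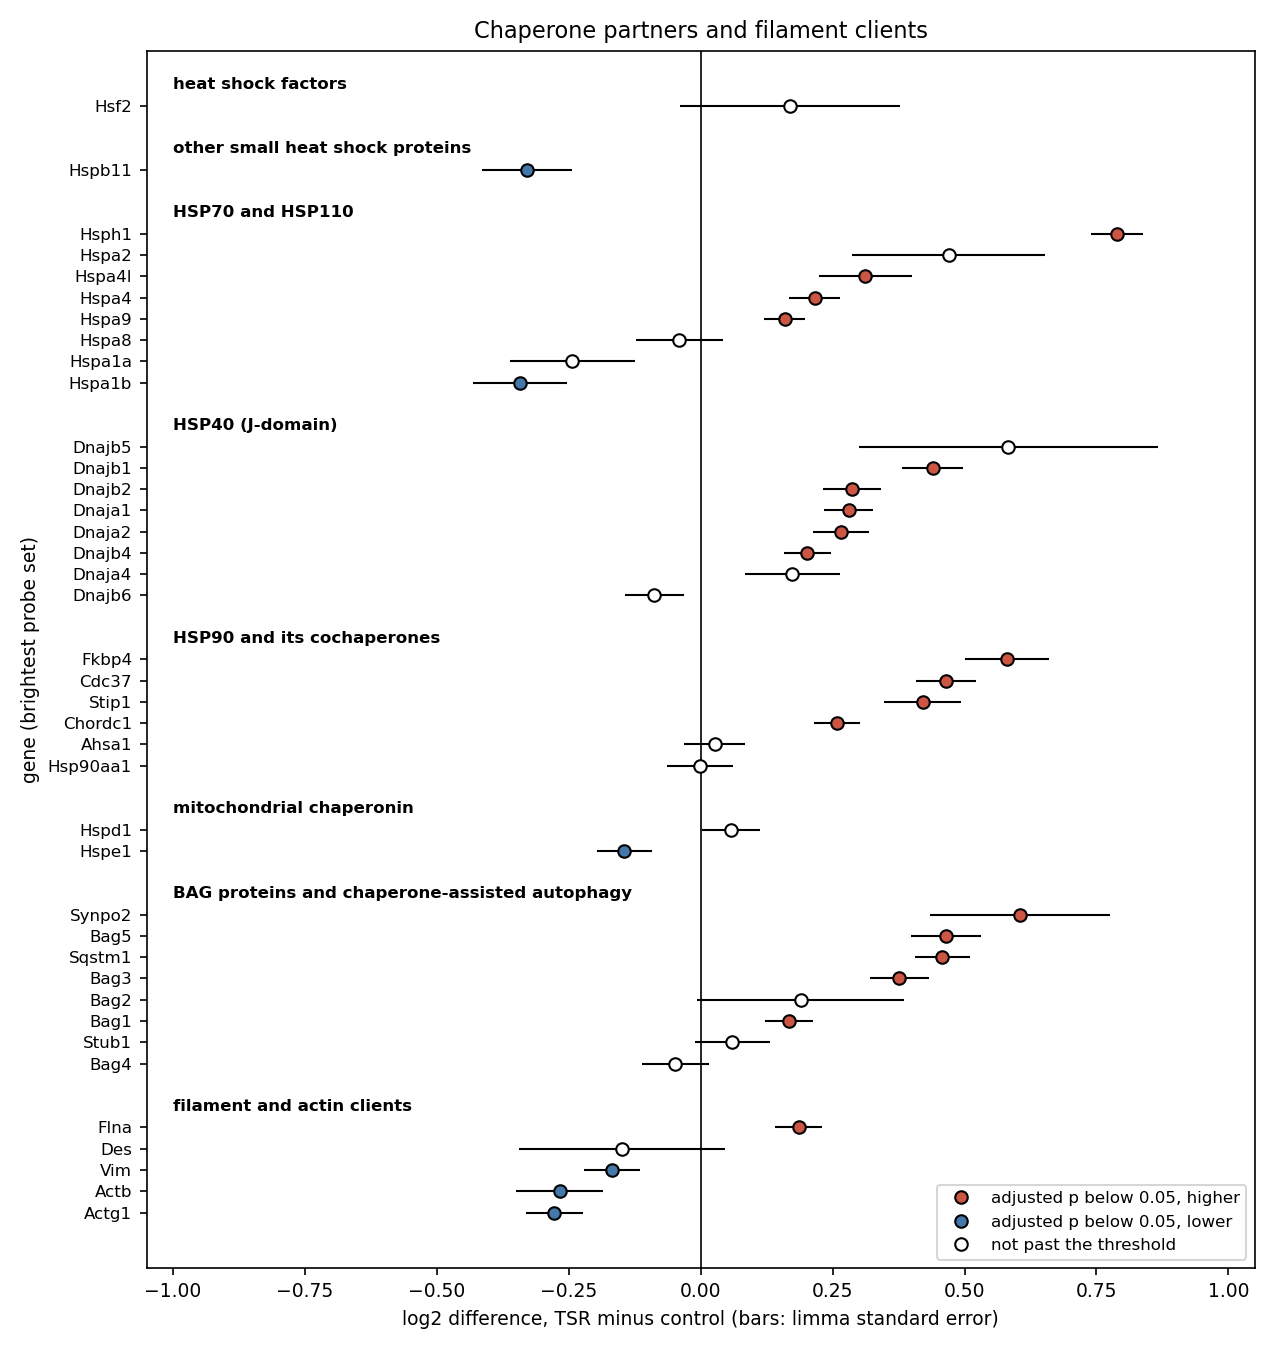
Log2 difference, TSR minus control, of the tested chaperone partner and filament genes by their brightest probe set, grouped by role, with bars for the limma standard error. Hsph1 lies farthest to the right among the partners at 0.79, and the filament genes Actb, Actg1 and Vim lie to the left of 0.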

How the data were processed

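Epididymal WAT of 3 control and 3 TSR arrays was analysed. The authors deposited MAS5 signals, a linear intensity per probe set, and the scale they used is kept. The version of the authors' software is not given in the sources used here. RNA was prepared from frozen tissue with Trizol per the labels, whereas the study's methods name a preservative and a lipid tissue kit. From the deposited intensity values, log2 signals were computed here. The 64 control probe sets and the lowest 35% by mean log2 signal were left out, and 14707 probe sets were fitted with limma 3.58.1 in R 4.3.3 (empirical Bayes with an intensity trend) with Benjamini-Hochberg adjustment. In simulated data on 14707 probe sets, 53 of 100 changed by 0.5 on the log2 scale and 84 of 100 changed by 1 were recovered, with 12 false calls. No other probe sets were changed there, whereas in the data 25.6% were called higher and 21.0% lower. These recovery rates therefore do not carry over to the main fit. A probe set was named where it had exactly 1 symbol (20380 had 1, 691 several, 1555 none), and a gene was taken by its brightest probe set. The members and lists were chosen with earlier results of these data known. Genes named were all probe sets of the members, in each role group the brightest gene and up to 3 called genes with the largest differences, the 2 brightest markers of a list where described, and the 5 probe sets most like Hspb7 and Cryab. Other scalings, filters, a replicate block, leave-one-out fits and the methods' t-test were tried. Protein sequences were not used here. With 3 arrays against 3, the number of arrays limits the precision, and an exact permutation test could not go below p = 0.10.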

Additional observations from a re-analysis of the deposited data

How the results depend on the processing

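For the small heat shock proteins, 121 of 130 values under the alternatives moved by less than 1 SD. None of the 10 probe sets that passed the filter reversed. Changes of sign were not counted for the 3 that did not pass, whose signals were near background. The 130 include the replicate block, which leaves these differences unchanged by design. They also include the leave-one-out values. With 3 arrays in a group, leaving out 1 cannot move a difference by 1 SD. The 9 values that moved were thus all under other scalings or with near-background signals raised. The count of 121 is therefore no measure of how stable the values are. The median log2 difference of the 6 genes was 0.55, and it was 0.44 with median centring, 0.47 with the mean of each gene's probe sets and 0.52 to 0.56 when 1 array was left out. With median centring Hspb7 was 3.95, Hspb2 0.29 and Hspb1 0.13 and 0.17 on the log2 scale. Probe sets called higher numbered 3768, against 2434 with median centring and 3075 to 3551 when 1 array was left out, and those called lower 3082, against 2525 to 2840. Of the partners, 17 to 19 rose and 2 to 3 fell when 1 array was left out. Partners that fell numbered 3, against 5 with median centring and 0 in the methods' t-test at an adjusted p under 0.05 (2 at an unadjusted p under 0.05) on linear as on log2 signals, where limma gave 3. Over all tested probe sets the methods' t-test on linear signals called 7069 at an unadjusted p under 0.05, 5222 after Benjamini-Hochberg adjustment and 471 of these with a ratio of at least 2. Quantile normalisation turned Hspa8 to 0.29 and Actb to 0.053. Of 45 probe sets of other genes covered by the naming rule, 28 kept their side of the threshold under every alternative run. None of these 28 reversed a called difference. Of the rest, 12 lost a call under at least 1 alternative and 3 gained one. The other 2, Hspa8 and Actb, changed sign with a call in at least 1 of the fits compared. A change of sign where neither fit made a call was not counted. The cause of these changes was not tested. The arrays share replicate numbers, but same-numbered arrays did not deviate together in every pair (r = 0.015, 0.19 and 0.17, and 4 of 6 arrays correlated best with their own number). With the replicate number as a block, 4043 probe sets were higher and 3391 lower, and 20 partners rose and 3 fell. Signals near background limit Hspb3 and the dimmest Hspb7 and Cryab probe sets.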
